A study of Mus musculus with 12 samples.

Results

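The 10 genes described here encode transcription factors of the immediate early class: Fos, Fosb and Fosl2 (FOS family), Jun and Junb (JUN family), Egr1 and Egr2 (zinc finger factors of the EGR family), Atf3 (a CREB-related stress factor), Ier2 (a small nuclear regulator) and Klf6 (a Krüppel-like zinc finger factor). They were taken by symbol and Ensembl identifier from a table of 32688 genes, and all 10 were among the 18066 genes that passed the filter on low counts. Immediate early genes are transcribed within minutes of a growth factor, cytokine or stress signal, without new protein synthesis, largely through MAP kinases acting on factors already bound at their promoters (SRF with its TCF partners, and CREB or ATF factors). FOS proteins pair with JUN proteins to form AP-1, which binds DNA at TGA-rich sites, whereas EGR proteins bind GC-rich sites and induce their own NAB corepressors. Most of these mRNAs decay within an hour or less, and in macrophages the AP-1 and EGR factors take part in responses to microbes, cytokines and CSF1.

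RNA was measured by sequencing in RAW264.7 cells, a mouse macrophage line, of 2 genotypes: Null, used by the study as its wild type, and CRISPR-made cells lacking TFEB and TFE3 (DKO), related transcription factors that bind E-boxes of lysosomal and autophagy genes. Each was examined as control cells, which the labels call untreated and the study's methods describe as given DMSO, or after 8 h in 100 µM etoposide, a topoisomerase II poison that leaves DNA breaks. Each of the 4 groups (Null control, DKO control, Null etoposide, DKO etoposide) had 3 libraries. Each genotype was 1 line, so the p-values below reflect the spread between cultures or libraries of that line alone.

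Total counts ran from 29837255 in Null control replicate 1 to 61809316 in DKO etoposide replicate 3, and mitochondrial transcripts took 14.1% to 21.7% of them. All 3 Null etoposide libraries (19.4% to 21.7%) lay above the other libraries (14.1% to 18.3%) in that share, and its part in the Null response below was not tested. Tfeb mRNA averaged 16.8 and 7.56 CPM (counts scaled to the library size) in Null control and etoposide libraries and 4.40 and 4.34 CPM in the DKO ones. Tfe3 averaged 104 and 101 CPM in the Null libraries and 37.8 and 37.7 CPM in the DKO ones. The titles of the DKO etoposide libraries carry the word MEFs (mouse embryonic fibroblasts), against every other label. All 8 macrophage markers were detected in every group, with summed levels of 4832 to 5132 CPM in Null control, 4313 to 4546 in Null etoposide, 4193 to 4346 in DKO control and 4585 to 4775 in DKO etoposide libraries. Single macrophage markers moved within these sums: 1 was called higher and 4 lower after etoposide in Null cells, 4 and 3 in DKO cells, 2 and 4 in DKO against Null control cells and 2 and 2 after etoposide. Fcgr1, an Fc receptor, averaged 69.5, 37.0, 29.1 and 5.13 CPM in Null control, Null etoposide, DKO control and DKO etoposide libraries. Csf1r, the CSF1 receptor, averaged 1751, 765, 1293 and 849.5 CPM in the same order. The 8 fibroblast markers summed to no more than 2.04 CPM in any library and to 1.01 to 1.1995 CPM in the DKO etoposide libraries, where Lum was at 0 and Pdgfrb gave the highest single value (0.963 CPM). The part of cell composition in the differences below was not tested.

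The 250 bases before the annotated start (RefSeq, GRCm38.p6) are shown for 4 of the genes whose windows held an E-box core or a CRE half-site: Fos, higher in DKO cells; Egr2, higher in DKO control cells; Atf3, lower in DKO cells; and Klf6, lower in DKO cells after etoposide. Capitals mark the E-box core CACGTG, the kind of site that TFEB and TFE3 bind, and the CRE half-site (TGACG, or CGTCA on the other strand), to which CREB and ATF factors bind; each sequence is written 5′ to 3′ on the gene's strand.
Fos, chr12:85473640-85473889, plus strand: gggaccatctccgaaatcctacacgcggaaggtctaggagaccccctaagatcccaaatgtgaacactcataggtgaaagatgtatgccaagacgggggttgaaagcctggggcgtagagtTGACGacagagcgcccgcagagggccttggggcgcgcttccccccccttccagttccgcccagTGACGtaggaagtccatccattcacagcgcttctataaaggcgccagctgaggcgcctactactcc
Egr2, chr10:67535249-67535498, plus strand: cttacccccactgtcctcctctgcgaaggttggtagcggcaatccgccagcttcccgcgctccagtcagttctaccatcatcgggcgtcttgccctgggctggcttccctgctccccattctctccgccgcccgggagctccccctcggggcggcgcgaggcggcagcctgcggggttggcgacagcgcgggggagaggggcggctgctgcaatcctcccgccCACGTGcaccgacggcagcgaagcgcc
Atf3, chr1:191183334-191183583, minus strand: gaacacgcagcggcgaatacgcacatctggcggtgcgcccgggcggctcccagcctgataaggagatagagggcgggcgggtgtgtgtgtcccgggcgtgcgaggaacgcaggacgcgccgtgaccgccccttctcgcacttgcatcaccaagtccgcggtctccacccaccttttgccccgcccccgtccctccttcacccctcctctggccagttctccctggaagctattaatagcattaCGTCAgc
Klf6, chr13:5861239-5861488, plus strand: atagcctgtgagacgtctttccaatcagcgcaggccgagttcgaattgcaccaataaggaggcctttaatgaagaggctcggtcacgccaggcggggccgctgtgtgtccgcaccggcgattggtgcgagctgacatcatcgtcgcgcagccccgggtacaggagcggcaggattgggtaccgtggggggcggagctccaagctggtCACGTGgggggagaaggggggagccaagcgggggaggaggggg
The Fos window held TGACG starting 129 and 66 bases before the start, and the Atf3 window held CGTCA 7 bases before it. The E-box core lay 43 bases before the Klf6 start and 27 bases before the most upstream of 5 annotated Egr2 starts. The downstream Egr2 starts were preceded by CArG boxes, the SRF site (CC, 6 bases of A or T, GG): CCATATATGG lay 72 bases before the start whose window began at base 67537619 of chromosome 10. A TGACG half-site lay 60 bases before the Fosb start and 106 bases before the Junb start, and that Egr2 window held half-sites 111 and 55 bases before its start. None of the searched motifs was found in the windows of Fosl2 and Jun. Windows of 8 of the 10 genes were searched, and those of Egr1 and Ier2 were not analysed here. Egr2 was searched in 5 windows, whereas the shares below are per single window. None of the 8 genes' windows held the AP-1 site TGANTCA, the full CRE TGACGTCA or the EGR site GCGTGGGCG. Both strands were searched. Over 32817 windows of the same length, 6.02% held the E-box core, 17.7% the half-site, 1.47% the CArG box, 6.75% the AP-1 site, 1.55% the CRE and 0.536% the EGR site. A match describes letters in the window and does not show that a factor was bound.

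In Null cells etoposide raised 8 of the 10 genes and lowered 1, Atf3, and Klf6 was not called. Differences are on the log2 CPM scale from limma-trend, and a gene was called at a Benjamini-Hochberg adjusted p under 0.05 over all genes tested. Of all tested genes 39.6% were called, 20.9% higher and 18.7% lower. The median difference of the 10 genes was 1.64, against 0.03 over all genes tested. The rises ran from 0.71 for Ier2 to 2.13 for Egr1, and for all 8 genes every etoposide library lay above every control library. In a bulk sample, fewer cells of a type and less RNA per cell cannot be told apart.

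In DKO cells the same treatment raised 3 of the genes, Fosl2, Fos and Junb, and lowered 3, Atf3, Egr1 and Klf6, where 39.3% of all tested genes were called, 20.2% higher and 19.1% lower. Fosb, Jun, Egr2 and Ier2 were not called. The median difference was -0.25, against 0.03 over all genes tested. The log2 response was smaller or more negative in DKO than in Null cells for all 10 genes, against 51.3% of all genes tested. Tested as an interaction (the DKO response minus the Null response), 7 genes were called lower and 0 higher (0 also at an unadjusted p under 0.05 and by edgeR, DESeq2 and voom), where 9.45% of all tested genes were called, 6.39% lower and 3.07% higher. The 7 were Egr1, Fosb, Egr2, Junb, Fos, Ier2 and Klf6.

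The interaction was not called for Fosl2 (-0.44, 95% interval -0.75 to -0.13, adjusted p = 0.0801), Jun (-0.51, -1.19 to 0.17, adjusted p = 0.419) or Atf3 (-0.69, -1.50 to 0.12, adjusted p = 0.336). These intervals do not show that the responses were alike. The calls for Fos and Klf6 were the least steady. The Fos call was lost on leaving out any of 7 of the 12 libraries (Null control 1 or 2, DKO control 2, Null etoposide 2 or 3, DKO etoposide 1 or 3), with values of -0.89 to -0.69 and adjusted p of 0.0516 to 0.084. The Klf6 call was lost on leaving out any of 9 libraries (Null control 2 or 3, DKO control 2 or 3, any Null etoposide library, DKO etoposide 1 or 2), with values of -0.83 to -0.65 and adjusted p of 0.0599 to 0.102. The Fosl2 difference was called without Null control 1 or DKO control 1 (-0.54 to -0.50, adjusted p 0.0185 to 0.0256).

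**Figure D1:**
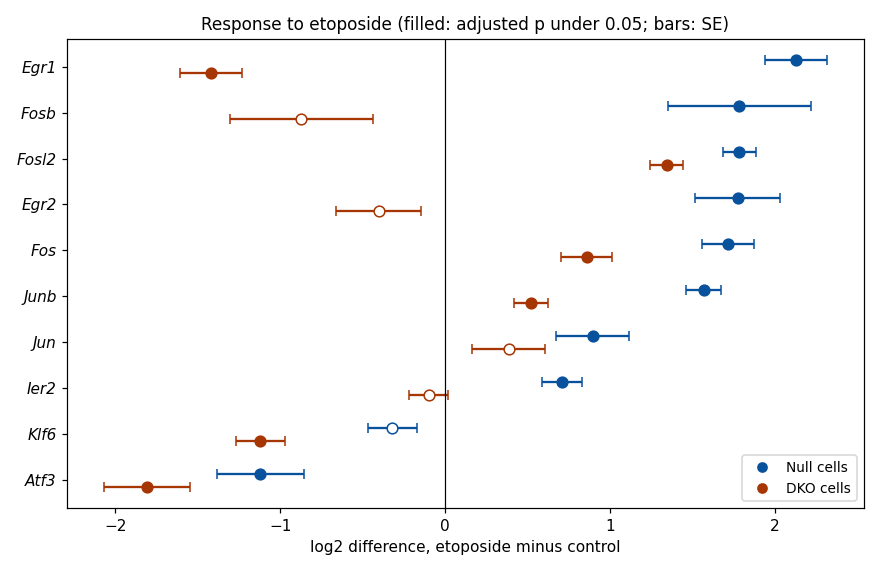
Log2 difference between etoposide and control cells for each gene (x axis) in Null and DKO cells, with bars of 1 SE from limma-trend and filled points for adjusted p under 0.05. The DKO point lies to the left of the Null point for all 10 genes, with the widest gap for Egr1 (2.13 against -1.42).

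Without drug, 4 genes were higher in DKO than in Null cells (Egr2, Fos, Fosl2 and Junb), 1 was lower (Atf3) and 5 were not called, where 19.3% of all tested genes were called, 10.9% higher and 8.39% lower. The median difference of the 10 genes was 0.43, against -0.00 over all genes tested. After etoposide only Fos and Fosl2 were called higher in DKO cells, and Egr1, Atf3, Fosb, Klf6, Ier2 and Junb were lower, where 33.6% of all tested genes were called, 15.9% higher and 17.8% lower. The median difference of the 10 genes was then -0.60, against -0.01 over all genes tested. Jun and Egr2 were not called after etoposide.

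**Figure D2:**
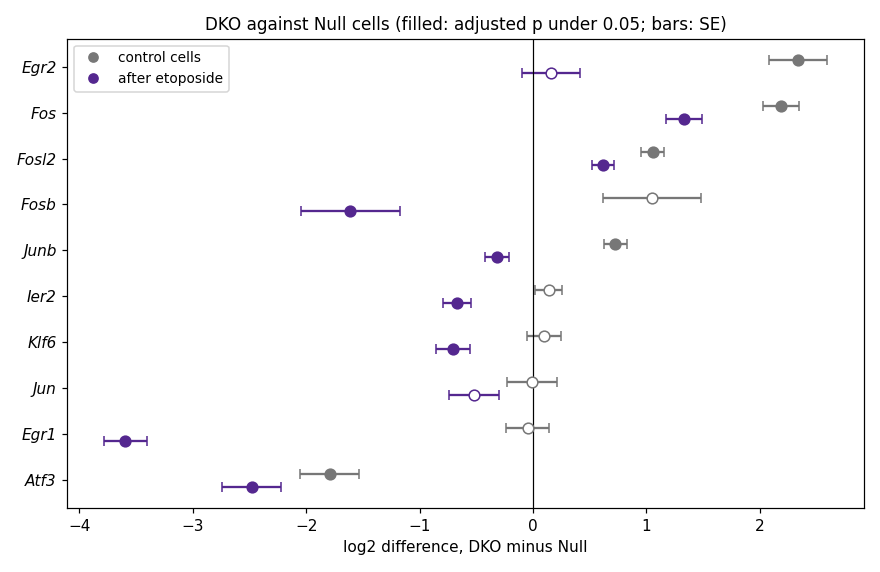
Log2 difference between DKO and Null cells for each gene (x axis), in control cells and after etoposide, with bars of 1 SE from limma-trend and filled points for adjusted p under 0.05. Egr2 moved from 2.34 without drug to 0.16 after it, Junb crossed from 0.73 to -0.32, and Atf3 lay below 0 in both conditions.

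Fos (ENSMUSG00000021250, GRCm38 chr12:85473890-85477273, plus strand) encodes the founding AP-1 subunit, a FOS protein that cannot pair with itself and works with a JUN partner. It stood at 14.3, 16.6 and 16.7 CPM in Null control libraries 1 to 3 and at 46.6, 54.8 and 55.85 CPM in the Null etoposide libraries. The DKO control libraries had 90.0, 71.4 and 59.4 CPM and the DKO etoposide libraries 142, 149.7 and 107 CPM. Every DKO control library thus lay above every etoposide-treated Null library, and no pair of the 4 groups overlapped. Fos rose by 1.72 ± 0.16 (log2, SE) in Null cells (adjusted p = 3.21e-06) and by 0.86 ± 0.16 in DKO cells (adjusted p = 0.000863). It was 4.56-fold higher in DKO than in Null control cells (log2 2.19, adjusted p = 5.74e-07) and 2.52-fold higher after etoposide (log2 1.33, adjusted p = 3.07e-05). Its log2 response was smaller in DKO cells (interaction -0.86, adjusted p = 0.029). In mean CPM it went from 15.9 to 52.4 in Null and from 73.6 to 133 in DKO cells, so the rise in CPM was not smaller there.

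Fosl2 (ENSMUSG00000029135, chr5:32135801-32157842, plus strand), which encodes FRA-2, a longer-lived FOS protein, was likewise lowest in Null control and highest in DKO etoposide libraries. It averaged 23.7 ± 2.98 CPM (SD, n = 3, as for the other averages) in Null control, 81.4 ± 2.68 in Null etoposide, 49.3 ± 5.14 in DKO control and 125 ± 7.08 in DKO etoposide libraries. No groups overlapped. Etoposide raised it by 1.78 in Null cells (adjusted p = 5.46e-08) and by 1.35 in DKO cells (adjusted p = 4.21e-07), and DKO cells were higher by 1.06 without drug (adjusted p = 7.4e-06) and by 0.62 after it (adjusted p = 0.000422). Fosb (ENSMUSG00000003545, chr7:19302696-19310051, minus strand), whose product also has a shorter form without its activation domain, was the scarcest of the 10 genes, at 9 to 81 counts per library. Its level was 0.778, 0.303 and 0.186 CPM in the Null control libraries and 1.36, 1.34 and 1.47 CPM in the Null etoposide libraries, a rise of 1.79 (adjusted p = 0.00582). In DKO cells it stood at 0.808, 0.862 and 0.762 CPM without drug and at 0.563, 0.192 and 0.625 CPM after etoposide. The DKO libraries did not overlap between conditions, but the difference of -0.87 was not called (adjusted p = 0.136), and it was -0.40 without DKO etoposide replicate 2 (adjusted p = 0.491). After etoposide Fosb was lower in DKO cells (-1.61, adjusted p = 0.0126), a call that was lost without DKO etoposide replicate 2 (-1.15, adjusted p = 0.0527). The interaction was -2.66 (adjusted p = 0.016). In control cells the difference of 1.05 was not called (adjusted p = 0.124), and without Null control replicate 1, the highest of its group, it was 1.55 (adjusted p = 0.013).

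Junb (ENSMUSG00000052837, chr8:84974484-84978718, minus strand) encodes a JUN protein that in many settings acts more weakly than c-JUN. Its levels were 73.1, 63.3 and 63.5 CPM in Null control, 184, 209 and 200.3 in Null etoposide, 127, 101.7 and 103 in DKO control and 170.2, 163 and 143 in DKO etoposide libraries. Its 4 groups did not overlap. Null control was the lowest and Null etoposide the highest, with both DKO groups between them. Etoposide raised Junb by 1.57 in Null cells (adjusted p = 2.13e-07) and by 0.52 in DKO cells (adjusted p = 0.00161), an interaction of -1.05 (adjusted p = 0.000557). The DKO cells were higher by 0.73 without drug (adjusted p = 0.000245) and lower after it, at -0.32 (adjusted p = 0.0329). The last call was lost on leaving out Null etoposide 2 or 3 or DKO etoposide 2 or 3 (-0.33 to -0.24, adjusted p 0.0621 to 0.139). Up to 5.79% of its counts could be reads of Prdx2, which overlaps it on the opposite strand.

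Jun (ENSMUSG00000052684, chr4:95049034-95052222, minus strand), which encodes c-JUN, the JUN protein activated by JNK, averaged 24.8 ± 8.31 CPM in Null control, 44.6 ± 0.701 in Null etoposide, 24.3 ± 5.86 in DKO control and 31.3 ± 5.02 in DKO etoposide libraries. It rose by 0.90 in Null cells (adjusted p = 0.00646), and in DKO cells the difference of 0.39 was not called (adjusted p = 0.196). The control groups overlapped, with a range of 18.2 to 34.1 CPM in Null and 17.7 to 28.8 CPM in DKO cells, and their difference was -0.01 (95% interval -0.49 to 0.47). Its sign changed without Null control 1 or DKO control 1 (0.24 and 0.19). After etoposide every Null library lay above every DKO library, but the difference of -0.52 was not called (adjusted p = 0.0918); it was called without Null control 1 or DKO control 1 (adjusted p 0.0334 to 0.0494).

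Egr1 (ENSMUSG00000038418, chromosome 18) gave the largest gap between the genotypes among the 10 genes. It encodes the EGR factor most widely used as a marker of MAP kinase signalling. In Null control libraries it stood at 35.4, 24.8 and 20.9 CPM and in Null etoposide libraries at 113, 116 and 119 CPM. In DKO control libraries it stood at 20.0, 29.2 and 28.4 CPM and in DKO etoposide libraries at 10.5, 7.92 and 10.3 CPM. The control groups overlapped, the Null etoposide libraries lay above them and the DKO etoposide libraries below them. Egr1 rose 4.37-fold in Null cells (log2 2.13 ± 0.19, adjusted p = 2.63e-06) and fell 2.67-fold in DKO cells (log2 -1.42 ± 0.19, adjusted p = 7.58e-05). The interaction was -3.55 ± 0.27 (adjusted p = 2.42e-06). After etoposide it was 12.1-fold lower in DKO than in Null cells (adjusted p = 2.13e-08), while the difference without drug was -0.05 (95% interval -0.46 to 0.37, adjusted p = 0.91). That last value changed sign without Null control 1 (0.16) or DKO control 1 (0.11) and was not called in any of these fits.

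Egr2 (ENSMUSG00000037868, chr10:67535475-67542188, plus strand), an EGR factor that in macrophages and lymphocytes is linked to differentiation and tolerance, differed between the genotypes before the drug rather than after it. It stood at 2.30, 1.76 and 1.28 CPM in Null control and at 5.80, 11.3 and 11.1 CPM in DKO control libraries. The Null etoposide libraries had 6.004, 5.93 and 6.27 CPM and the DKO etoposide libraries 7.65, 5.53 and 7.40 CPM. The Null control libraries alone lay below all others. DKO control cells were 5.05-fold higher than Null control cells (log2 2.34 ± 0.26, adjusted p = 2.84e-05), and after etoposide the difference was 0.16 (95% interval -0.40 to 0.72, adjusted p = 0.678). Egr2 rose by 1.78 in Null cells (adjusted p = 0.000155), and its difference in DKO cells of -0.40 was not called (adjusted p = 0.248), an interaction of -2.18 (adjusted p = 0.00205). Without DKO control replicate 1, the lowest of its group, the DKO difference was -0.71 and was called (adjusted p = 0.0148).

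Atf3 (ENSMUSG00000026628, chr1:191170296-191218039, minus strand) was the only one of the 10 genes called lower after etoposide in both genotypes in the main fit. It encodes a bZIP factor that is induced by stress in many cell types and restrains inflammatory genes in macrophages. It stood at 7.004, 5.71 and 7.69 CPM in Null control, 3.06, 3.11 and 3.05 in Null etoposide, 2.89, 1.78 and 1.34 in DKO control and 0.473, 0.700 and 0.378 in DKO etoposide libraries. The groups did not overlap, although DKO control 1 came close to the Null etoposide libraries. Etoposide lowered it in Null cells (-1.12, adjusted p = 0.0046) and in DKO cells (-1.81, adjusted p = 0.000145). DKO cells were 3.46-fold lower without drug (adjusted p = 0.000293) and 5.58-fold lower after it (adjusted p = 1.25e-05), and the lowest group rested on 23 counts in its smallest library.

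Ier2 (ENSMUSG00000053560, chr8:84661331-84662852, minus strand) and Klf6 (ENSMUSG00000000078, chr13:5861482-5870394, plus strand) differed between the genotypes only in the tests after etoposide. Ier2 averaged 13.1 ± 2.29 CPM in Null control, 21.3 ± 1.56 in Null etoposide, 14.3 ± 1.10 in DKO control and 13.3 ± 0.810 in DKO etoposide libraries. It rose by 0.71 in Null cells (adjusted p = 0.00047), and its DKO difference was -0.10 (95% interval -0.36 to 0.16), so that it was lower in DKO cells after etoposide (-0.67, adjusted p = 0.000861; interaction -0.81, adjusted p = 0.0089). Klf6 stood at 84.1, 72.7 and 67.4 CPM in Null control, 62.9, 57.6 and 58.3 in Null etoposide, 62.9, 81.9 and 97.8 in DKO control and 35.3, 32.5 and 42.5 in DKO etoposide libraries. The DKO etoposide libraries alone lay below all others. Klf6 fell in DKO cells (-1.12, adjusted p = 6.94e-05), whereas the Null difference of -0.32 was not called (adjusted p = 0.109) but was called without DKO control 1 (-0.34, adjusted p = 0.0277). It was lower in DKO cells after etoposide (-0.70, adjusted p = 0.00284; interaction -0.80, adjusted p = 0.0316).

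**Figure D3:**
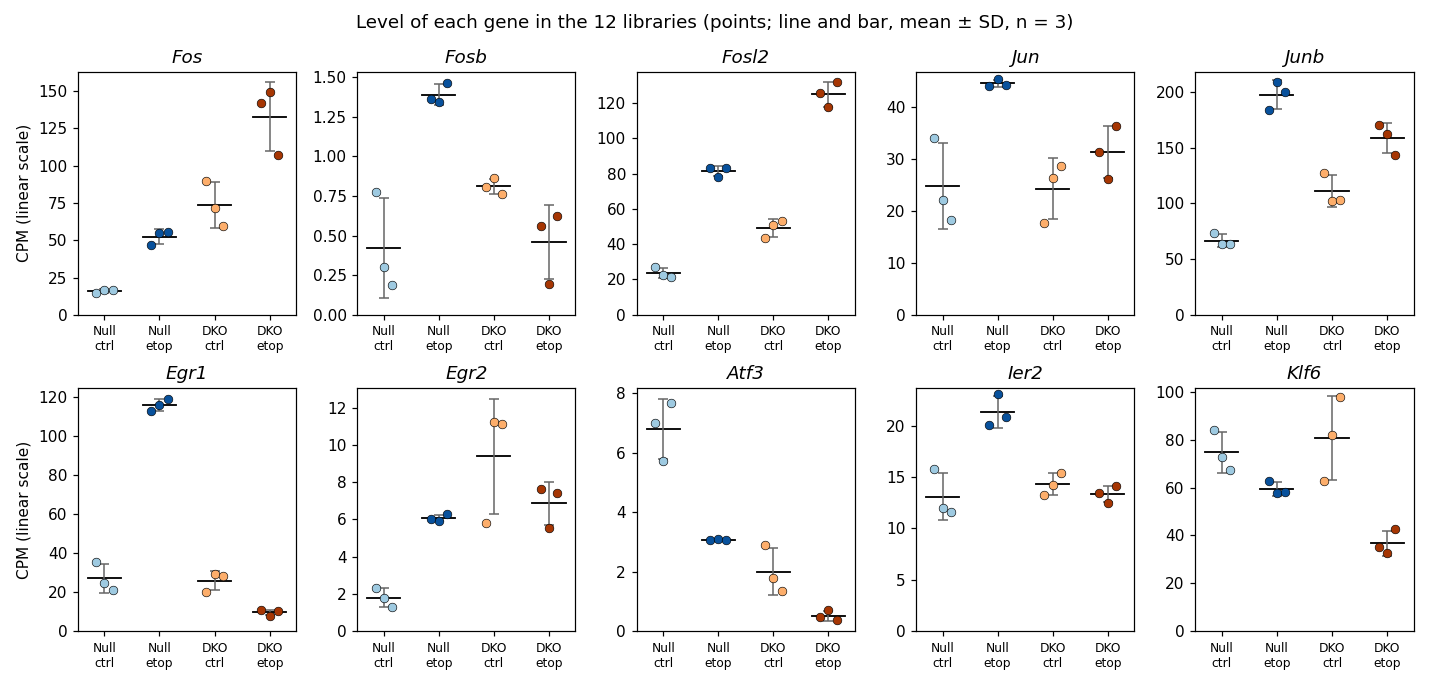
Level of each gene in CPM (linear y axis from 0, its own scale in each panel) in the 12 libraries, as points by group (ctrl, control; etop, etoposide), with the group mean as a horizontal line and 1 SD as an error bar. Egr1 was at 113 to 119 CPM in the Null etoposide libraries and at 7.92 to 10.5 CPM in the DKO etoposide ones, whereas Fos was higher in each DKO group than in the Null group of the same treatment.

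Several libraries stood at the edge of their group for many of the genes at once. Null control replicate 1, with the fewest counts and the lowest mitochondrial share (14.1%), was the highest of its group for 8 of the 10 genes. DKO control replicate 1 was the lowest of its group for 6 genes (Fosl2, Jun, Egr1, Egr2, Ier2 and Klf6) and the highest for Fos, Junb and Atf3. DKO etoposide replicate 2 was the lowest of its group for 7 genes. The part of depth and RNA quality in these positions was not tested. The libraries of a group spread least after etoposide, with a median SD over all tested genes of 0.09 (log2) in Null etoposide and 0.15 in DKO etoposide against 0.21 and 0.24 in the control groups. In every comparison of 2 groups, genes without overlap between the groups were common. Of the 10 genes, 8 were higher and 2 lower without overlap after etoposide in Null cells, where 28.1% and 24.9% of all tested genes were, and in DKO cells 3 were higher and 4 lower, where 24.2% and 22.2% were. Between the genotypes, 4 were higher and 1 lower in DKO control cells (14.3% and 13.3% of all tested genes), and 2 higher and 7 lower in DKO cells after etoposide (27.5% and 28.1%).

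Levels of different genes were compared only per length, as CPM per kb of exon. Junb was the most abundant of the 10 mRNAs in every group, at 29.0, 48.1, 85.9 and 68.9 CPM per kb in Null control, DKO control, Null etoposide and DKO etoposide cells. The mRNA next in order differed. It was Klf6 in Null control (17.0), Fos in DKO control (31.3), Egr1 in Null etoposide (25.8) and Fos in DKO etoposide cells (56.6). Ier2, Jun and Klf6 came close together in Null etoposide cells (13.988, 13.99 and 13.6 CPM per kb) and did not differ there beyond their spread. Fosb was the least abundant in every group, at 0.0676 to 0.223 CPM per kb.

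Summed over the FOS genes (Fos, Fosb, Fosl1 and Fosl2), the level was 11.3 ± 0.431 CPM per kb in Null control, 52.6 ± 2.18 in Null etoposide, 57.4 ± 2.61 in DKO control and 115 ± 5.06 in DKO etoposide libraries. Every DKO control library thus lay above every Null etoposide library, and the ranges of the 4 groups did not overlap. The sum over the JUN genes (Jun, Junb and Jund) was 62.1 ± 9.77, 135 ± 9.03, 89.4 ± 4.28 and 124 ± 4.72 CPM per kb in the same order. The FOS sum was 0.184 ± 0.0227 of the JUN sum in Null control, 0.391 ± 0.0220 in Null etoposide, 0.644 ± 0.0542 in DKO control and 0.931 ± 0.00537 in DKO etoposide libraries, again without overlap between groups. These sums were not tested, and they count mRNA and not protein. Up to 48.0% of the Jund counts could be reads of a gene that overlaps it.

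Of 11 tested genes for other AP-1 subunits and partners, 6 rose and 2 fell in Null cells (20.9% and 18.7% of all tested genes), and 6 rose and 1 fell in DKO cells (20.2% and 19.1%). The gene for FRA-1, Fosl1, had the largest rise of the list in Null cells, from 4.04 ± 1.15 to 44.2 ± 1.69 CPM (3.47, adjusted p = 9.22e-07). In DKO cells it went from 42.5 ± 15.2 to 92.6 ± 20.4 CPM (1.17, adjusted p = 0.00459), an interaction of -2.30 (adjusted p = 0.00215). Without drug it was higher in DKO cells by 3.34 (adjusted p = 2.05e-06). Jdp2, an AP-1 repressor, fell in Null cells (-1.11) and had the only interaction of the list in the other direction (1.21, adjusted p = 2.52e-05). Batf, a bZIP partner of JUN in immune cells, had 176, 287 and 192 counts in the Null control libraries and 1, 0 and 0 in the DKO control ones. It is among the 6 genes called higher in DKO cells, where the DKO etoposide libraries had 4, 3 and 1 counts, so that call rests on counts near 0 in a gene that passed the filter through the Null groups.

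Of the partners of the EGR factors, Egr3 rose in Null cells (1.11, adjusted p = 0.0011), and its DKO difference of 0.48 was not called (adjusted p = 0.0937). Nab2, a corepressor induced by EGR factors, rose in both (0.79 and 0.53), although up to 23.2% of its counts could be reads of an overlapping gene. Nab1 fell in DKO cells (-0.32, adjusted p = 0.00585). Of these 3 tested genes 0 had a called interaction by limma-trend, edgeR, DESeq2 or voom (1 at an unadjusted p under 0.05, lower in DKO cells). The limma-trend interaction was called for 9.45% of all tested genes, so 0 of 3 does not set these genes apart.

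Upstream of the 10 genes, 0 of 6 SRF, MRTF and TCF genes and 0 of 15 MAP kinase genes had a called interaction by limma-trend, edgeR, DESeq2 or voom; at an unadjusted p under 0.05 there were 0 and, in each direction, 1. With 9.45% of all tested genes called, counts of 0 in lists of this size set neither list apart. Elk1 and Elk3, TCF partners of SRF, were higher in DKO cells without drug (0.25 and 0.74) and after it (0.29 and 1.22), and Mkl1, an SRF coactivator, fell in Null cells (-0.54). Of the kinases, Mapk13, a p38 isoform, rose in both genotypes, from 1 to 2 counts in each control library to 49 to 86 in Null and 32 to 39 in DKO etoposide libraries. It passed the filter through the etoposide groups, where it is high. Map2k3, an activator of p38, also rose in both genotypes (0.79 and 0.49), and Map2k3 and Map2k1 were higher in DKO cells without drug (0.73 and 0.57). Of 13 feedback inhibitors of MAP kinases, 9 rose and 3 fell in Null cells (20.9% and 18.7% of all tested genes) and 6 rose and 3 fell in DKO cells (20.2% and 19.1%), and Dusp4 and Dusp14 had a lower response in DKO cells by the interaction term. Dusp8 was called too, and it is among the 9 that rose in Null cells. It had 16 to 26 counts in the Null etoposide libraries and 0 to 5 in all others. It passed the filter through the group where it is high, so its calls are not support for the list. Dusp5, a nuclear phosphatase of ERK, averaged 1.63 ± 0.243 CPM in Null control, 26.6 ± 0.258 in Null etoposide, 8.50 ± 0.733 in DKO control and 101.5 ± 1.85 in DKO etoposide libraries. It was higher in DKO cells by 2.35 without drug (adjusted p = 1.06e-08) and by 1.93 after it (adjusted p = 3.38e-08). Dusp1 and Dusp4 were also higher in DKO cells in both conditions (1.31 and 1.42; 1.89 and 1.02), whereas Dusp6, the cytoplasmic ERK phosphatase, was lower (-1.25 and -1.64). Spred1, an inhibitor of the RAS to ERK path, fell in both genotypes (-1.50 and -1.23).

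Of 29 other tested immediate early genes, 21 rose and 2 fell in Null cells (20.9% and 18.7% of all tested genes), and 15 rose and 4 fell in DKO cells (20.2% and 19.1%). Their median difference was 1.07 in Null and 0.56 in DKO cells, and by the interaction term 11 had a lower and 1 (Btg1) a higher log2 response in DKO cells, where 6.39% of all tested genes were called lower and 3.07% higher. The 11 included Nfil3, which fell in both genotypes, and Sgk1, which rose in Null and fell in DKO cells. Ptgs2, the inducible cyclooxygenase, averaged 12.2 ± 1.12 CPM in Null control and 117 ± 6.14 CPM in Null etoposide libraries, against 50.4 ± 2.30 and 255 ± 8.40 CPM in the DKO ones. It rose by 3.26 and 2.33, an interaction of -0.92 (adjusted p = 0.000151). Plk2, a kinase gene that p53 also induces, went from 2, 0 and 0 counts in the Null control libraries to 675, 520 and 569 after etoposide, and from 81, 94 and 51 to 1029, 1144 and 1292 counts in DKO cells. Ier3, an NF-κB and p53 target, rose in both genotypes (2.81 and 2.98; interaction 0.17, 95% interval -0.23 to 0.58, adjusted p = 0.702). Myc was at 0.174 ± 0.0851 CPM in Null control and 9.77 ± 2.04 CPM in DKO control cells, and it rose in Null cells to 0.750 ± 0.0456 CPM. In DKO etoposide cells it stood at 7.06 ± 0.592 CPM. Between the genotypes after etoposide this list split, with 9 genes higher and 11 lower in DKO cells (15.9% and 17.8% of all tested genes). These 11 include Gem and Nr4a3, which passed the filter through Null libraries, where they are high. Gem had 16 to 37 counts in the Null etoposide and 0 to 1 in the DKO libraries. Nr4a3, also among the 21 that rose in Null cells, had 16 to 22 counts in the Null etoposide libraries and 0 to 9 in all others. Such calls are not support for the list.

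The relatives of Klf6 and Atf3 gave other patterns. Of 10 other KLF genes, 2 rose and 4 fell in Null cells (20.9% and 18.7% of all tested genes) and 2 rose and 5 fell in DKO cells (20.2% and 19.1%), so that the rises were at the share of all genes. Klf2, a KLF gene of quiescent and anti-inflammatory macrophages, rose more in DKO cells (1.46 against 0.40, interaction 1.05, adjusted p = 0.00426), and Klf4 and Klf13 fell in both genotypes (-1.21 and -0.97; -1.56 and -1.49). Klf11 fell further in DKO cells (-2.17 against -0.76, interaction -1.41, adjusted p = 0.0062). Of 13 ATF, CREB and integrated stress response genes, 8 fell and 2 rose in Null cells (18.7% and 20.9% of all tested genes) and 10 fell and 2 rose in DKO cells (19.1% and 20.2%). They included Atf4, the main factor of that response (-1.59 and -1.93), and its targets Trib3 (-3.73 and -6.35) and Chac1 (-1.95 and -4.09), and the last 2 were lower in DKO cells after etoposide (-2.20 and -2.10). Without drug 0 genes of this list were called between the genotypes by limma-trend, where 19.3% of all tested genes were, and Atf3 was called. At an unadjusted p under 0.05, 4 genes of the list were higher in DKO cells, and edgeR called 1 and DESeq2 and voom 2 higher. A count of 0 in a list of this size is not read as a result about the list. Crem and Cebpb rose in both genotypes, although up to 12.9% of the Cebpb counts could be reads of an overlapping gene.

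The list named AU-rich mRNA decay factors held 12 genes that act on AU-rich mRNAs, to which many immediate early transcripts belong, or in deadenylation. It includes Elavl1, whose product HuR stabilises such mRNAs. Of the 12, 3 rose and 2 fell in Null cells and 4 rose and 2 fell in DKO cells, counts near the shares of all tested genes (20.9% and 18.7%; 20.2% and 19.1%). Zfp36, which encodes tristetraprolin, was higher in DKO than Null control cells (0.62, adjusted p = 0.00834), and Tob1, a deadenylase adaptor, had the only called interaction of this list (2.95 in Null against 1.87 in DKO cells; -1.09, adjusted p = 0.000707). Of 14 tested genes that textbooks list as AP-1 targets, 9 were higher and 1 lower in DKO than Null cells without drug (10.9% and 8.39% of all tested genes), and 9 were higher and 1 lower after etoposide (15.9% and 17.8%). Plaur, the urokinase receptor, was higher by 2.74 and 1.08, and Cd44, an adhesion receptor, by 1.44 and 1.10. Timp1, a protease inhibitor, had 0 to 4 counts in the Null libraries without drug, 2 to 4 with it, and 52 to 95 and 193 to 214 counts in the corresponding DKO libraries. It is among the 9 in both comparisons and passed the filter through the DKO groups, where it is high, so its calls are not support for the list. After etoposide Il1b, the interleukin-1β gene, was higher in DKO cells by 1.39 (adjusted p = 0.015), whereas Plau, the urokinase gene, was lower (-0.94, adjusted p = 2.28e-06). These targets also answer to NF-κB and other factors, and AP-1 binding was not measured.

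**Figure D4:**
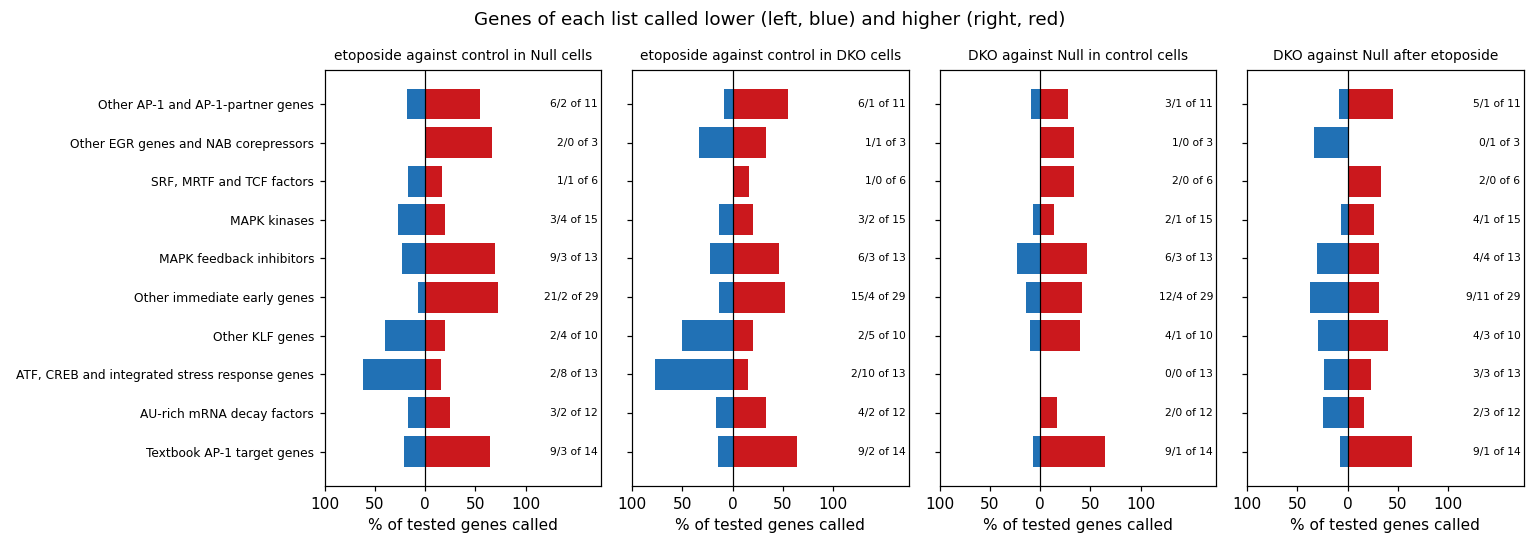
Share of the tested genes of each list that were called lower (to the left, blue) and higher (to the right, red), in percent, in the 4 comparisons of groups, with the counts higher/lower of tested at the right of each row. The stress response genes lean to the left under etoposide in both genotypes, with 8 and 10 of 13 lower, and the AP-1 targets lean to the right in all 4 panels, with 9 of 14 higher in each. The counts include genes that passed the filter through groups where they are high, such as Batf, Dusp8, Gem, Mapk13, Nr4a3 and Timp1.

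The genes with the most similar pattern were found by the root mean square difference of centred log2 CPM over the 12 libraries, where 0 is an identical shape. The best matches were Csnk1e for Ier2 (0.0789), Slfn10-ps for Fosl2 (0.0955), Fam241a for Klf6 (0.0963), Kmt2d for Jun (0.115), Fam131a for Junb (0.125) and Acy1 for Fos (0.194). Looser matches were Rnase4 for Atf3 (0.279), Frk for Egr2 (0.348), Gm43464 for Fosb (0.474) and Gm8251 for Egr1 (0.501). Next to these came Mir1306 for Ier2, Rhbdf2 for Fosl2, Brip1os for Klf6, Iffo1 for Jun, Slc12a4 for Junb, Pcbp4 for Fos, Trem3 for Atf3, Abcg4 for Egr2 and Gm45371 for Fosb. The counts of Iffo1 (up to 47.8%), Gm45371 (47.1%), Slc12a4 (11.8%), Brip1os (11.4%) and Mir1306 (8.46%) could be reads of overlapping genes. Among the 10 genes themselves the closest pair was Ier2 and Jun (0.245).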

How the data were processed

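The 10 genes and the gene lists were chosen with earlier results of these data known, so their counts and medians are descriptions. RNA was extracted with either of 2 kits, which the labels do not assign to libraries. The values were deposited as raw counts per gene for 12 libraries that were not pooled. According to the study's methods, the authors made strand-marked libraries from total RNA after removing ribosomal RNA, aligned read pairs with HISAT2 and counted uniquely mapped pairs with HTSeq, whereas the submitters' processing notes list featureCounts, with the build mm10. Versions and the strand setting were not given in the sources used here. Symbols and coordinates came from GENCODE M21 (GRCm38) by identifier, with 99.4% of identifiers matched. Reads of overlapping genes may be shared, so the largest share that a neighbour could give, from its read density, was computed for each named gene.

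The filterByExpr function of edgeR 4.0.16 kept 18066 genes, and counts were scaled by TMM (factors 0.939 to 1.03) and converted to log2 CPM with a prior count of 3. Levels are CPM on TMM-scaled library sizes. All 12 libraries entered 1 limma-trend model (limma 3.58.1, R 4.3.3, robust) with a mean per group and 5 contrasts. Two-sided p-values were adjusted over all genes tested (Benjamini-Hochberg, threshold 0.05). Squared differences between replicates of a group were, at the median, at least 3.40 times those of counting error alone. No file was thus a repeat count of 1 sequenced library. Whether libraries share a culture is not settled by this. The scripts were tested on simulated data. Alternatives were voom, edgeR quasi-likelihood and DESeq2 1.42.0 tests, other normalizations, filters and thresholds, fits of 2 groups, a replicate block and leaving out each library.

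Beside the 10 genes, the text names the 2 genes closest in pattern to each and, from each list and comparison it describes, some of the up to 3 called genes with the largest rise and the up to 3 with the largest fall, all genes of lists with 4 or fewer tested, and Tfeb, Tfe3 and markers as checks of the labels. A gene named for 1 comparison may also be given in another, and Atf4 and Nr4a3 were named outside this rule, after their values were seen. Some genes that the rule would name are not reported here.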

Additional observations from a re-analysis of the deposited data

Results flagged for a closer look

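The response to etoposide differed between DKO and Null cells for 7 of the 10 genes by the interaction term of limma-trend, where 9.45% of all tested genes were called. The difference of the log2 responses was -3.55 for Egr1, which rose in every Null etoposide library over every Null control library and was lower in every DKO etoposide library than in every DKO control library. It was -2.66 for Fosb and -2.18 for Egr2, both called in Null cells only. The difference between their responses was itself tested (adjusted p = 0.016 for Fosb and 0.00205 for Egr2). It was -1.05 for Junb and -0.86 for Fos, which rose in both genotypes. It was -0.81 for Ier2 and -0.80 for Klf6. The calls for Fos and Klf6 were lost on leaving out 7 and 9 of the 12 libraries in turn.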

How the results depend on the processing

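Of the 35 called differences of the 10 genes, 31 kept their direction and their call in all of the up to 22 alternatives run for single genes, and the exceptions were Fosb and Junb between the genotypes after etoposide and the interactions of Fos and Klf6. Leaving out each library in turn, 9 to 10 of the 10 genes were called for etoposide in Null cells, 6 to 7 in DKO cells, 5 to 6 between the genotypes without drug, 6 to 9 after etoposide and 5 to 8 for the interaction. Over all genes the same fits called 5900 to 8036, 5877 to 7895, 2727 to 4721, 4737 to 7004 and 1203 to 2038 genes, and in all 5 comparisons the highest count came without DKO control 1, which also gave the 10, the 7 and the 8. With an absolute log2 difference of at least 1 also required, 4 genes instead of 8 were called between the genotypes after etoposide and 4 instead of 7 for the interaction, since smaller differences then no longer count; over all genes the counts fell from 7148, 7108, 3490, 6079 and 1708 to 2381, 2370, 1365, 2167 and 816 in the order Null response, DKO response, DKO against Null without drug and with it, and interaction. Fitted on the control groups alone, DKO against Null gave 2031 genes. The interaction call of Fos was also lost with library size alone as the scaling (-0.82, adjusted p = 0.0523). With 2 groups fitted alone, Klf6 was called in Null cells (-0.33) and Jun after etoposide (adjusted p = 0.00123).

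Differences that changed sign were those of Jun, Egr1 and Klf6 between the control groups, none of them called: Jun was 0.003 with voom and ran from -0.21 to 0.24 when libraries were left out, Egr1 from -0.21 to 0.16 and Klf6 from -0.051 to 0.25. The cause was not tested. The libraries share replicate numbers across groups, but the numbers did not pair them: of 18 same-numbered pairs, 1 had deviations correlated above 0.1 (range -0.54 to 0.39), and none of the 12 libraries was closest to its own number. Between libraries of different numbers the correlations ran from -0.49 (DKO control 1 and DKO etoposide 3) to 0.58 (Null control 3 and DKO control 1). What such libraries shared was not tested. With a replicate block, 9, 6, 5 and 8 of the 10 genes were called in the 4 comparisons of groups and 5 for the interaction (Fos, adjusted p = 0.056, and Klf6, 0.0655, were not), and 6450, 6420, 3009, 5394 and 1310 of all genes. Depth limits Fosb and Atf3 most, with as few as 9 and 23 counts in a library.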
